A study of Mus musculus with 3 samples.

Results

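The genes described here are 10 transcripts tied to fat cells and to fat synthesis, followed in 3 libraries of mouse skeletal muscle. They were chosen by symbol from a list of white and brown adipocyte markers and lipogenic enzymes, and each of the 10 was found on 1 row of the 24481 rows in every file. The study, by its title, concerns fatigue in mice and an extract of the leaves of Sasa quelpaertensis (dwarf bamboo). All mice were of the ICR stock at postnatal day 42. Each group gave 1 library. The groups were a control without a named treatment (NC), an exercise control (EC), and a group given exercise and a treatment labelled SQH (ES), and the codes NC, EC and ES are those of the labels. The labels do not give the muscle, the exercise, the dose of SQH, the sex, or whether a library holds 1 animal or several.

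Adipocytes lie between muscle fibres and along the vessels and fascia of a dissected muscle, so that muscle RNA carries a small amount of adipocyte RNA. White adipocytes store triglyceride in a large droplet coated with perilipin and CIDE proteins and secrete adipokines. Brown adipocytes burn fat through the uncoupling protein of the mitochondrial inner membrane. Muscle fibres hold small lipid droplets of their own and also make triglyceride, so the enzymes of fat synthesis are less restricted to fat cells than the adipokines are.

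Values are the authors' log2 levels as deposited, and how they were scaled is not given in the sources used here. On the linear scale, most low values lay near multiples of 1 step per library, taken here as 1 read. Depth was about 10.8 M reads for NC, 8.12 M for EC and 12.4 M for ES, as worked out from the spacing of the low values. With 1 library a group, differences could not be tested against replicates. A gene was called higher or lower when it differed by at least 2-fold (1 on the log2 scale) and its mean linear level over the 3 libraries reached 66.5, the median of the 15714 rows above 0 anywhere, which 7857 rows did. Intervals beside differences are 95% counting intervals from approximate reads. They cover counting error alone, and reads copied by PCR are not independent molecules.

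Of the 10 genes 6 reached that level, namely Cfd, Cidea, Elovl3, Dgat2, Scd1 and Thrsp. The nearest to the limit were Elovl3, just above it with a mean linear level of 70.2, and Adipoq, just below it at 50.1. Plin1 at 25.7, Cidec at 17.0 and Ucp1 at 1.64 were further below. The labelled tissue was checked by its markers, and 7 of 7 skeletal muscle markers had a log2 level of 14.68 or more in each library. The EC library stood apart in its makeup. Its 6 slow-fibre markers were all called lower than in NC (summed linear level 40511 against 478245 in NC and 377860 in ES), and 4 of its 5 nerve markers were called higher (3491 against 811 and 887). No slow-fibre or nerve marker was at 0 in any library. These shifts moved together with several results below, and their part in them was not tested.

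Among promoter sequences, the RefSeq table of build GRCm38.p6 held entries for 6 of the 10. The 250 bases before the start site are shown for Adipoq, Cidec and Cfd, because the first 2 were low in the EC library and Cfd was not, and because RefSeq and GENCODE M21 place their starts at the same base. Capitals mark matches, on either strand, to the CCAAT box (CCAAT). The windows are chr16:23146286-23146535 on the plus strand for Adipoq, chr6:113435761-113436010 on the minus strand for Cidec and chr10:79890603-79890852 on the plus strand for Cfd.
Adipoq: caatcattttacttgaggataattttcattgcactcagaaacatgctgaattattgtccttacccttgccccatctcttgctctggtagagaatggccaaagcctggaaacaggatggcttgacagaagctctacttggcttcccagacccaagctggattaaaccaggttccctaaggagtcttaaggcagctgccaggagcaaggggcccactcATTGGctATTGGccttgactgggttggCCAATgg
Cidec: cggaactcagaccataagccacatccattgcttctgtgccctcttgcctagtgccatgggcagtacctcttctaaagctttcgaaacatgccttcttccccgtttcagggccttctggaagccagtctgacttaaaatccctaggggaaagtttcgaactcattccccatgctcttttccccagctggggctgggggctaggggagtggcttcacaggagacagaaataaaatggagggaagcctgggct
Cfd: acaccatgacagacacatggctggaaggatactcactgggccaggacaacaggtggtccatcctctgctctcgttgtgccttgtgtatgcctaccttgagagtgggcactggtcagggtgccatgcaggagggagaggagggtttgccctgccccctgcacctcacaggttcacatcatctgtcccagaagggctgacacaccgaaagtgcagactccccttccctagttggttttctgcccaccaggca

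Adipoq carried 3 CCAAT boxes, beginning 34, 27 and 7 bases before its start, and Cidec and Cfd carried none. A CCAAT box stood in 33.9% of 32841 RefSeq promoter windows of the same length. Of 6 other motifs searched on both strands, none occurred in these 3 windows. These were the TATA box TATAAA (12.4% of all windows), the E-box CACGTG (6.02%), the nuclear receptor half-site AGGTCA (14.0%), a direct repeat of that half-site with 1 base between (0.0335%), the GC box GGGCGG (32.7%) and the C/EBP palindrome TTGCGCAA (0.164%). The direct repeat contains the half-site, so its matches are counted in both. Outside the windows shown, Thrsp held 2 CCAAT boxes and Ucp1 held 1 half-site. These are matches of letters only.

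ES was the highest library for 8 of the 10 genes, and NC for the other two, Elovl3 and Thrsp. EC was the lowest for 9 of 10, counting Ucp1, which was listed at 0 both there and in NC. Thrsp alone was lowest in ES. These orders count differences of any size, and the share of all rows with the same order was not worked out. Adipoq was higher in ES than in NC by only 0.01 (-0.45 to 0.48). Cfd, Scd1 and Plin1 were lower in EC than in NC by no more than counting error. In a bulk sample, fewer fat cells, less RNA per fat cell and a change in other cells, muscle fibres included, cannot be told apart.

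**Figure D1:**
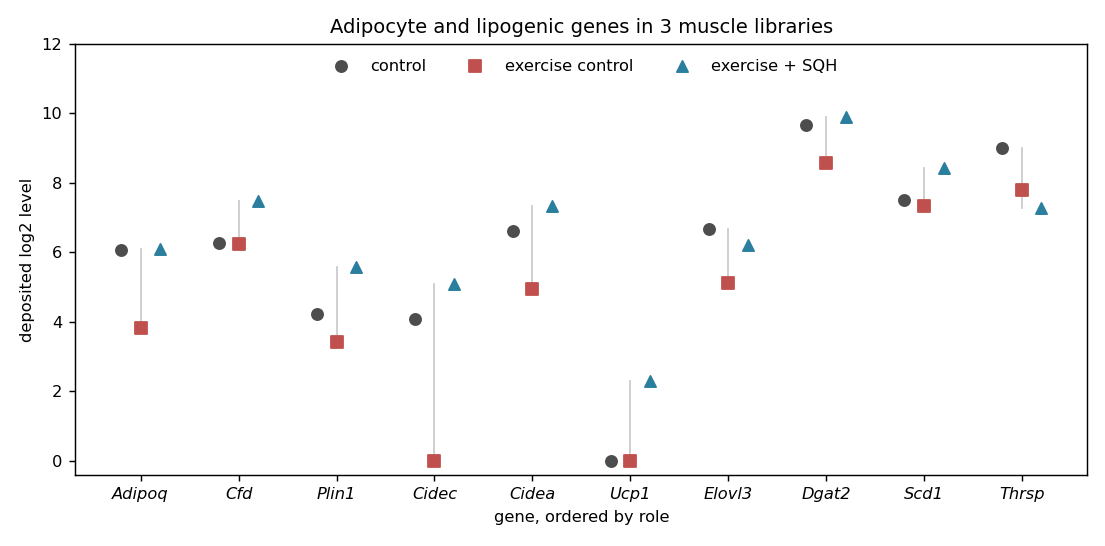
Deposited log2 level (vertical axis) of each of the 10 genes (horizontal axis) in NC (control, circles), EC (exercise control, squares) and ES (exercise + SQH, triangles), 1 library each; grey lines span the 3 values. The square is lowest, or tied at 0, for every gene other than Thrsp.

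Adipoq (ENSMUSG00000022878.5, chromosome 16, 23146536 to 23158028, plus strand) encodes adiponectin, a hormone made almost solely by adipocytes. It stood at 6.08 in NC, 3.83 in EC and 6.09 in ES, or about 72, 12 and 89 reads. EC was thus low and the other two libraries nearly equal. Against NC, EC differed by -2.25 (-3.26 to -1.35), a level 4.75-fold lower, and ES by 0.01 (-0.45 to 0.48). ES lay 2.26 above EC (1.38 to 3.26). Adipoq was below the minimum level, so none of these is a call.

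Cfd (ENSMUSG00000061780.6, chromosome 10, 79890853 to 79892655, plus strand) encodes adipsin, complement factor D, a serine protease that adipocytes secrete and that activates the alternative complement pathway. It stood at 6.27 in NC, 6.25 in EC and 7.49 in ES. Only the ES library was high, and the other two differed by less than counting error, by -0.02 (-0.51 to 0.47). Cfd was called higher in ES than in EC (1.25, 0.84 to 1.67) and than in NC (1.22, 0.86 to 1.61). The latter is a 2.34-fold higher level. The summed linear level of 6 macrophage markers was 493 in ES, 284 in NC and 285 in EC, and none of the 6 was called in any comparison. Only C1qa reached the minimum level, at 7.51, 7.60 and 8.28 in NC, EC and ES. Cd68, Csf1r and Mrc1 also had their highest value in ES, whereas Lyz2 was lowest there (2.91, 3.24 and 2.80) and Adgre1 was at 0 there. The part of macrophage RNA in the Cfd value was not tested.

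Of the genes for lipid droplet proteins, Plin1 (ENSMUSG00000030546.14, chromosome 7, 79720218 to 79732903, minus strand) encodes perilipin 1, which coats the adipocyte droplet and controls access of lipases to it. It stood at 4.23, 3.42 and 5.57 in NC, EC and ES, from about 20, 9 and 62 reads. The ES library was above both others, by 2.16 over EC (1.13 to 3.35) and by 1.34 over NC (0.59 to 2.14). The difference between EC and NC, -0.82 (-2.13 to 0.39), was within counting error.

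Cidec (ENSMUSG00000030278.11, chromosome 6, 113424634 to 113435760, minus strand) encodes a protein that sits where droplets touch and helps them fuse into large ones. Its log2 level was 4.08 in NC and 5.09 in ES, and it was listed at 0 in EC, from about 18, 45 and 0 reads. A value of 0 in the EC library stands for no read, since the lowest value above 0 there is worth 0.937 of a read step. ES lay 1.01 above NC (0.21 to 1.904). No fold was computed against the library at 0.

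Cidea, on chromosome 18 (ENSMUSG00000024526.9), encodes the related droplet protein that is abundant in brown fat. It stood at 6.62 in NC, 4.95 in EC and 7.34 in ES, about 105, 26 and 212 reads. EC was low, and ES stood above both. Cidea was called lower in EC than in NC (-1.675, -2.35 to -1.04), a 3.19-fold difference. It was called higher in ES than in EC, by 2.39 (1.80 to 3.04) or 5.25-fold, and only 0.649% of all rows past the minimum differed by as much or more in that direction. Between ES and NC the difference of 0.72 (0.38 to 1.07) did not reach 2-fold.

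Ucp1, whose product is the uncoupling protein of brown fat mitochondria, was listed at 0 in NC and EC and at 2.30 in ES, about 6 reads. In the NC and ES libraries a value of 0 can hold a single read, because the lowest value above 0 equals about 2 read steps (1.98 and 1.91). At 6 reads against none or 1, no fold was computed.

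**Figure D2:**
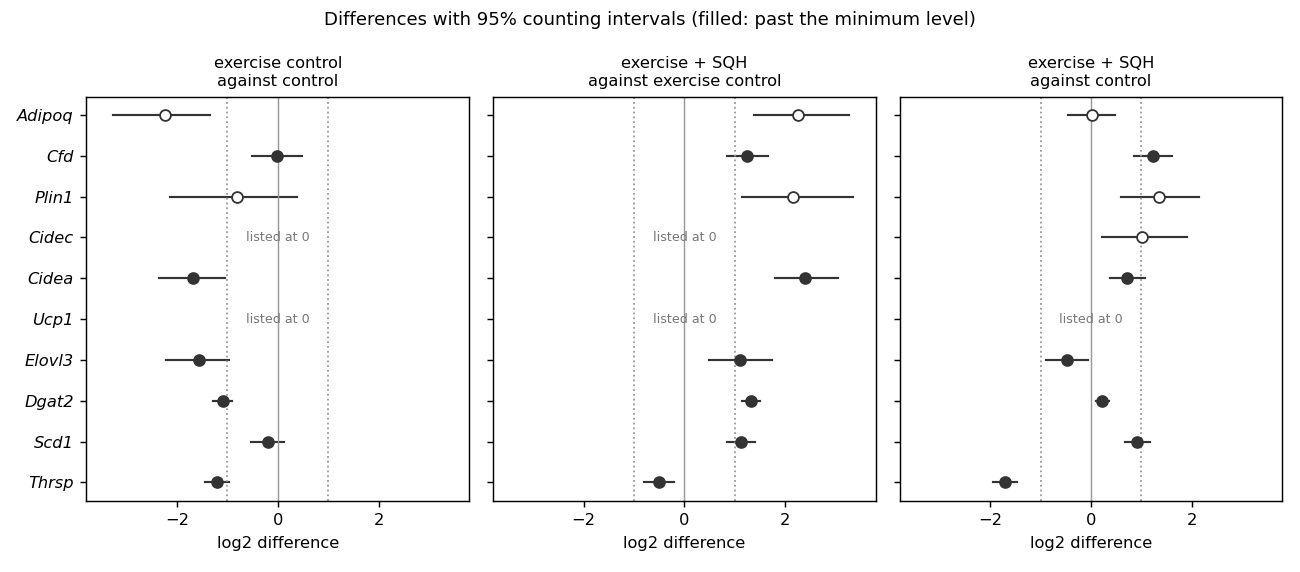
Log2 difference (horizontal axis) of each gene in the 3 comparisons, with bars for the 95% counting interval from approximate reads; filled points passed the minimum level, dotted lines mark 2-fold, and genes listed at 0 in a library have no point. Cidea spans from -1.675 to 2.39 across the first and second panels, and Thrsp is the only gene left of 0 by 2-fold in the third.

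The enzymes of fat synthesis differed among themselves. Dgat2 (ENSMUSG00000030747.5, chromosome 7, 99153658 to 99182719, minus strand) encodes diacylglycerol acyltransferase 2, which adds the last acyl chain of triglyceride. It stood at 9.67 in NC, 8.575 in EC and 9.89 in ES, with about 868, 321 and 1240 reads. EC was low and the other two libraries lay close together. Dgat2 was called lower in EC than in NC (-1.095, -1.29 to -0.91) and higher in ES than in EC (1.32, 1.14 to 1.498). ES and NC differed by 0.22 (0.09 to 0.35), above counting error and far from 2-fold.

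Elovl3 (ENSMUSG00000038754.5, chromosome 19, 46131897 to 46135694, plus strand) encodes an elongase of very long chain fatty acids found in brown fat, liver and skin glands. It stood at 6.68 in NC, 5.11 in EC and 6.20 in ES. NC was the highest of the 3. Elovl3 was called lower in EC (-1.57, -2.21 to -0.97). The ES library exceeded EC by 1.095 (0.48 to 1.75), a call that ended after quantile normalization (0.944), and lay under NC by -0.47 (-0.89 to -0.07). Exons of Elovl3 share 10 bases with Pitx3 on the opposite strand, which stood at 4.43, 3.06 and 4.75. If counting ignored strand, a small part of the reads of either could belong to the other. Whether it did is not given in the sources used here. Of 6 skin and sebaceous gland markers, Krt5 and Krt14 were at 0 in all 3 libraries. Awat2 (2.91) and Elovl4 (2.73) were above 0 in NC alone, the library where Elovl3 was highest, Krt79 was above 0 in EC alone (0.224), and Krt10, the one marker past the minimum, stood at 6.64, 6.64 and 6.67. The summed linear level of the list was 114, 101 and 101, and the part of skin gland RNA in the Elovl3 values was not tested.

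Scd1 (ENSMUSG00000037071.3, chromosome 19, 44394455 to 44407879, minus strand) encodes stearoyl-CoA desaturase 1, which puts the double bond into oleate. It stood at 7.52 in NC, 7.33 in EC and 8.44 in ES. As with Cfd, EC did not differ from NC beyond counting error (-0.20, -0.53 to 0.13), and the ES library alone was high. Scd1 was called higher against EC (1.12, 0.84 to 1.41), and its difference from NC, 0.92 (0.68 to 1.17), was just short of the 2-fold line. Scd1 has close copies in the genome, and how the authors treated reads that match several copies is not given in the sources used here. Scd2, one of them, went the other way, at 8.06, 9.10 and 8.21, and was called higher in EC than in NC (1.04, 0.82 to 1.26).

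Thrsp (ENSMUSG00000035686.8, chromosome 7, 97412938 to 97417730, minus strand) encodes Spot 14, a nuclear and cytosolic protein induced by thyroid hormone and carbohydrate that promotes fatty acid synthesis. It stood at 9.01 in NC, 7.80 in EC and 7.29 in ES, about 548, 188 and 205 reads. NC was high and both exercised libraries were low. Thrsp was called lower in EC (-1.20, -1.45 to -0.96) and in ES (-1.71, -1.95 to -1.48) than in NC, the latter a 3.28-fold lower level. Only 0.153% of the rows past the minimum lay as far or farther below NC in ES. The 2 exercised libraries differed by -0.51 (-0.80 to -0.21). Mid1ip1, which encodes the protein most like Spot 14, stood at 9.71, 9.25 and 9.93. Like Thrsp it was lower in EC than in NC, by -0.46 (-0.62 to -0.30) and short of 2-fold. Unlike Thrsp it lay above NC in ES, by 0.215 (0.09 to 0.34). Thrsp lies 1.74 Mb from Dgat2 on chromosome 7, and the 2 genes went opposite ways between EC and ES.

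Set beside all rows, EC had 4 genes called lower than NC among the 6 past the minimum (Cidea, Elovl3, Dgat2 and Thrsp), where 5.33% of the 7857 rows were called lower, and 0 called higher, where 2.95% were. Cidea passed the minimum here only because the mean included its ES level. Among the 3877 rows with a mean level under 4 times the minimum, 6.68% were called lower and 4.02% higher. With the minimum raised to 271, which only Dgat2 and Thrsp reached, 2 lower calls were left here, beside 4.02% of the 3929 rows, and 1 higher call in ES against EC, beside 4.22%. The median difference was -1.15 both over the 10 genes and over the 6 past the minimum, and that of all rows past the minimum was -0.045. Of the 10 genes 9 lay below NC and 1, Ucp1, was at 0 in both. Among the 9, Cfd, Scd1 and Plin1 differed within counting error. For Cfd (-0.02), 52.0% of rows past the minimum lay as low or lower.

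In ES against EC, 5 of the 6 were called higher (Cfd, Cidea, Elovl3, Dgat2 and Scd1), against 5.68% of all rows and 7.17% of rows under 4 times the minimum. Elovl3 passed the minimum here only because the mean included its NC level. None of the 6 was called lower (2.33% of all rows and 3.35% of those under 4 times the minimum). The median was 1.18 over the 6 genes past the minimum, beside 0.03 for all rows past it. With genes below the minimum included, it was 1.74 over the 10 as deposited and 1.28 over the 8 above 0 in both libraries. This comparison shares the EC library with the preceding one, so its values are not separate evidence.

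In ES against NC, which leaves out EC, 1 gene was called higher (Cfd, where 1.76% of rows were) and 1 lower (Thrsp, where 1.26% were). Under 4 times the minimum these shares were 2.63% and 1.96%. The median was 0.47 over the 6 genes past the minimum, beside -0.015 for all rows past it. With genes below the minimum included, it was 0.82 over the 10 and 0.72 over the 9 above 0 in both libraries. Of the 10 genes 8 lay above NC and 2, Elovl3 and Thrsp, below it. Among the 8, Adipoq differed by only 0.01, within counting error. For Dgat2 (0.22), 26.6% of rows past the minimum lay as high or higher.

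**Figure D3:**
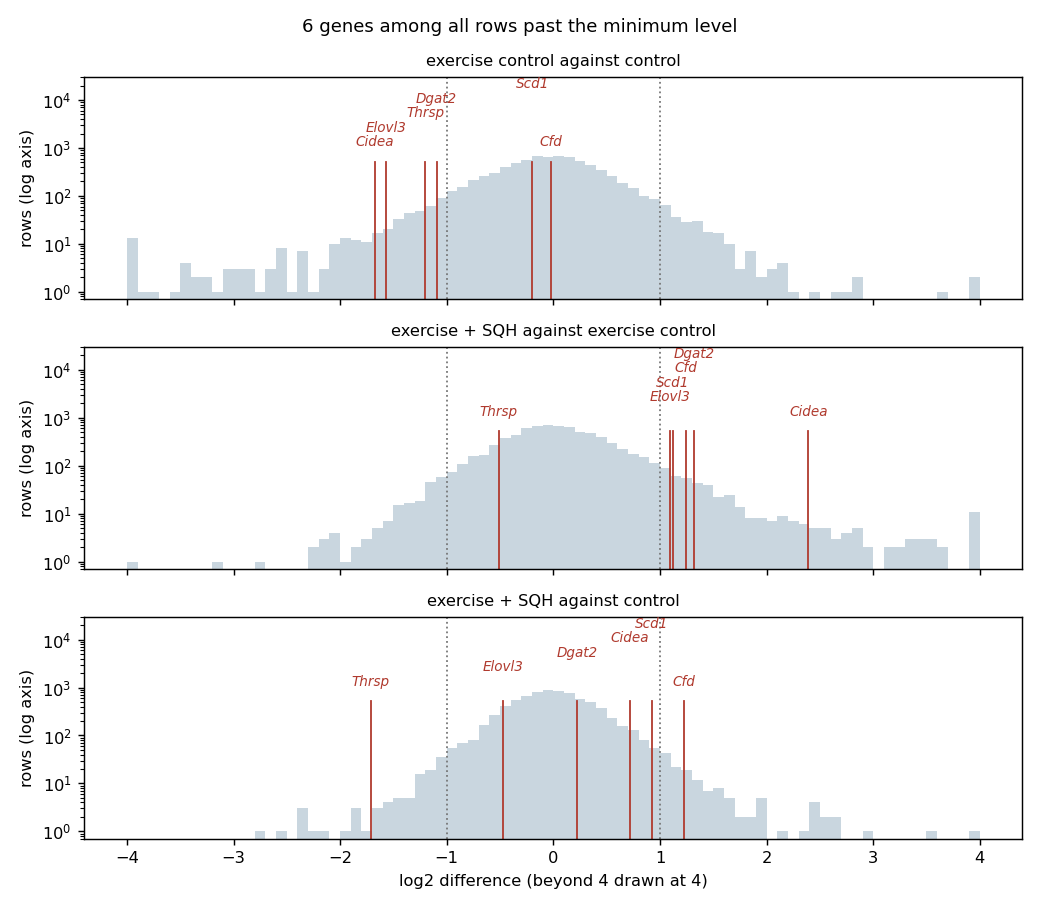
Number of rows (vertical log axis) by log2 difference (horizontal axis, values beyond 4 drawn at 4) for the 7857 rows past the minimum, with red lines at the 6 genes and dotted lines at 2-fold. Cidea, Elovl3, Thrsp and Dgat2 lie left of the line in the top panel, 5 genes lie right of it in the middle panel, and Thrsp and Cfd lie outside both lines at the bottom.

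Of the white fat marker list, 16 genes besides the 10 were found and 4 passed the minimum, and none of these was called in any comparison. They were Fabp4 (11.93, 11.72 and 12.19 in NC, EC and ES), a fatty acid carrier that capillary cells also make, Plin4 (12.02, 12.30 and 12.41), Lipe, the hormone-sensitive lipase (8.64, 8.95 and 8.90), and the transcription factor gene Cebpa (6.70, 6.23 and 6.61). The other 12 were below the minimum. Lep was at 0 in all libraries, Retn stood at 1.93, 0 and 2.04, Tusc5 at 2.23, 0 and 2.42, and Pparg, the master regulator of adipocyte formation, at 3.61, 3.94 and 3.20. Adig stood at 4.82, 3.25 and 3.44, and Aqp7, the glycerol channel of adipocytes, at 6.038, 5.004 and 5.944. Pck1 stood at 4.155, 2.84 and 4.52, Lgals12 at 0, 0 and 1.65, and Acvr1c at 2.495, 2.56 and 2.43. Adrb3 was at 0 in NC alone (0, 1.86 and 1.59). Rbp4 (3.81, 3.26 and 1.92) and Sncg (4.23, 4.41 and 2.61) were lowest in ES. These 12 genes below the minimum were named once their values were known. The summed linear level of the list was 8725, 9099 and 10838, most of it from Plin4 and Fabp4, so the genes below the minimum hardly enter it.

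Of 19 brown fat and thermogenic genes 8 passed the minimum, and 2 were called higher in ES than in EC. These were Pdk4, which shuts pyruvate dehydrogenase (1.96), and Ppargc1a, the coactivator of mitochondrial genes (1.06), both expressed by muscle fibres themselves. Against NC the same 2 genes and Dio2, the enzyme that activates thyroid hormone (6.43, 7.18 and 7.46), were called higher in ES. None was called between EC and NC. Lhx8, Cpn2, Bmp8b and Fgf21 were at 0 in every library, Prdm16 stood at 4.66, 4.95 and 4.70, and Zic1 at 4.86, 6.02 and 5.46. Ebf2, a transcription factor of brown fat precursors, passed the minimum at 8.88, 9.46 and 8.67. These 6 genes and Ebf2 were picked once their values were known.

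Of 22 other genes of fatty acid synthesis and desaturation, 14 passed the minimum, with a median difference of 0.00 between EC and NC (7 above and 7 below), 0.075 between ES and EC, and 0.18 between ES and NC. Scd2 was the only call. Nr1h3, the lipid-sensing receptor LXR alpha, stood at 5.58, 6.54 and 6.50, and Srebf1, the transcription factor of lipogenic genes, at 8.16, 7.83 and 7.65, without reaching 2-fold. Fasn, the fatty acid synthase, stood at 7.193, 6.773 and 7.205 and is named after its values were seen. Between ES and NC, Fasn differed by 0.01 (-0.30 to 0.32).

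Of 15 genes of triglyceride synthesis besides Dgat2, 7 passed the minimum and none was called. Lpin1, the phosphatidate phosphatase, came nearest in EC (0.89 above NC), and Agpat9, an acyltransferase of the first step, came nearest in ES (0.98 above EC). Dgat1, the other enzyme of the last step (named with its values known), stood at 7.70, 7.83 and 7.68, a difference of 0.14 between EC and NC and of -0.15 between ES and EC. Among 21 genes of lipolysis and the lipid droplet, 18 passed the minimum. G0s2, an inhibitor of adipose triglyceride lipase, was the only call, higher in ES than in EC (1.035, 0.72 to 1.36). Plin2, the droplet coat of cells other than adipocytes, stood at 7.51, 7.48 and 8.36 in the 3 libraries, and Lpl, the lipoprotein lipase of muscle and fat, at 14.65, 13.85 and 14.53.

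Of 14 adipogenic transcription factors 12 passed the minimum. Cebpb, an early factor of adipocyte formation that many cells use, was called higher in ES than in EC (1.05) and stood at 10.24, 9.28 and 10.32. Klf5 was called higher than NC in both exercised libraries, by 1.08 in EC and 1.23 in ES. Markers of fibro-adipogenic progenitors, the mesenchymal cells from which muscle fat arises, were not called in any comparison. Their summed level was 4355 in NC, 5564 in EC and 4715 in ES, most of it from Dcn (11.66, 12.07 and 11.85). Pdgfra (6.35, 6.79 and 6.44), Ly6a (8.63, 9.22 and 8.79) and Dpt (7.82, 7.89 and 7.65) were also highest in EC. Col15a1 was instead highest in NC (8.46, 8.05 and 7.79), and Pi16 in ES (5.84, 5.80 and 6.165).

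**Figure D4:**
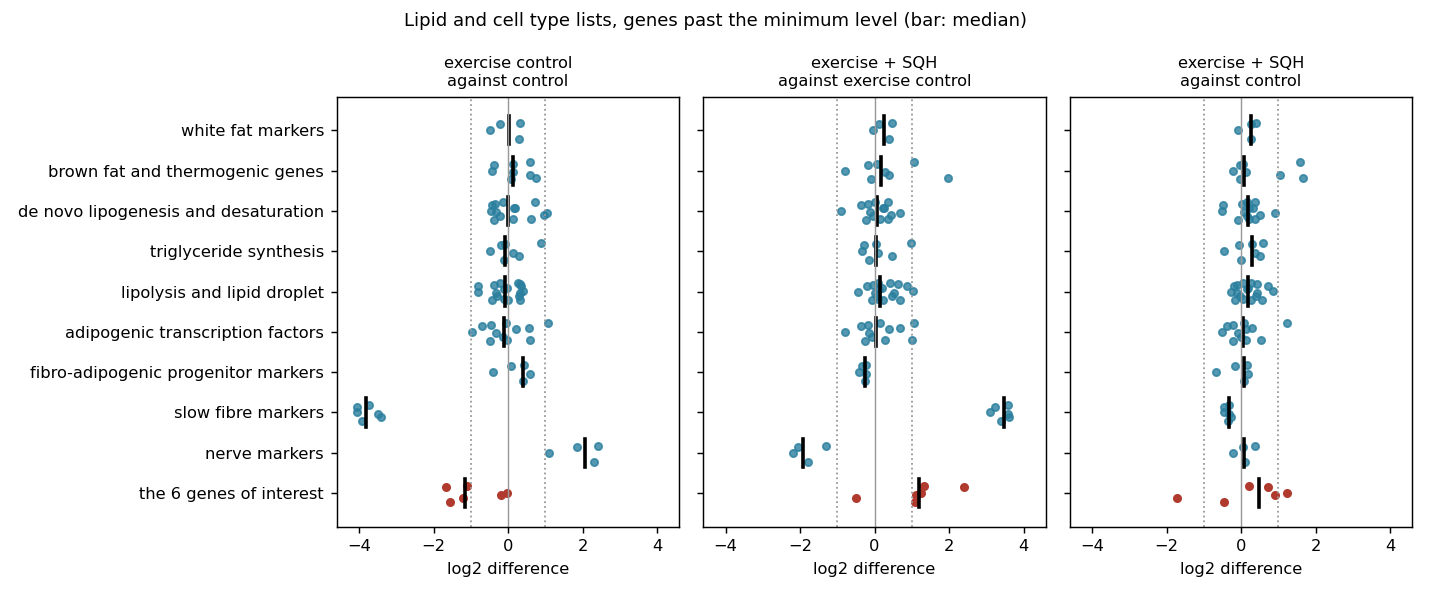
Log2 difference (horizontal axis) of each gene past the minimum in lists of lipid and cell type genes, with the 6 genes of interest in red at the bottom; black bars are medians and dotted lines mark 2-fold. Lipid lists centre near 0 in all panels, while slow-fibre and nerve markers lie beyond 2-fold in the first and second panels and not in the third.

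For each of the 6 genes past the minimum, the rows with the most similar pattern were those with the smallest distance between log2 values centred on their own mean over the 3 libraries. Thrsp had the rarest pattern, with 2 other rows within a distance of 0.25. Both encode S-adenosylmethionine decarboxylase, an enzyme of polyamine synthesis, namely Amd2 (12.99, 11.68 and 11.11 in NC, EC and ES, distance 0.1247) and Amd1 (12.60, 11.54 and 10.69, distance 0.244). Amd1 and Amd2 are close copies, and their reads may not be separable. Next was Npm3 (0.263).

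The pattern of Cidea was shared within 0.25 by 12 rows, nearest Kcnj2, an inward rectifier potassium channel of muscle (9.50, 7.72 and 10.14, distance 0.0746), Nup107 (0.0764) and Trip10 (0.108). Cfd had 23 such rows, led by Unc50 (0.0143), Ppp3cc (0.0316) and Osbpl5 (0.0833). Elovl3 had 59, led by Samd1 (0.0131), Myh10 (0.0142) and Tsc22d4 (0.0693), and Scd1 had 66, led by Ino80d (0.0242), Ndfip2 (0.0488) and Col6a1 (0.0653). Dgat2 had the commonest pattern, with 154 rows, 1.96% of those compared. Its nearest were Lrrn1 (0.0196), Lgr4 (0.0227) and Ldhb (0.0517), whose product is a lactate dehydrogenase subunit of oxidative tissue, which stood at 10.77, 9.71 and 10.95. With 3 libraries, a small distance says only that 2 rows share 3 numbers up to a constant.

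**Figure D5:**
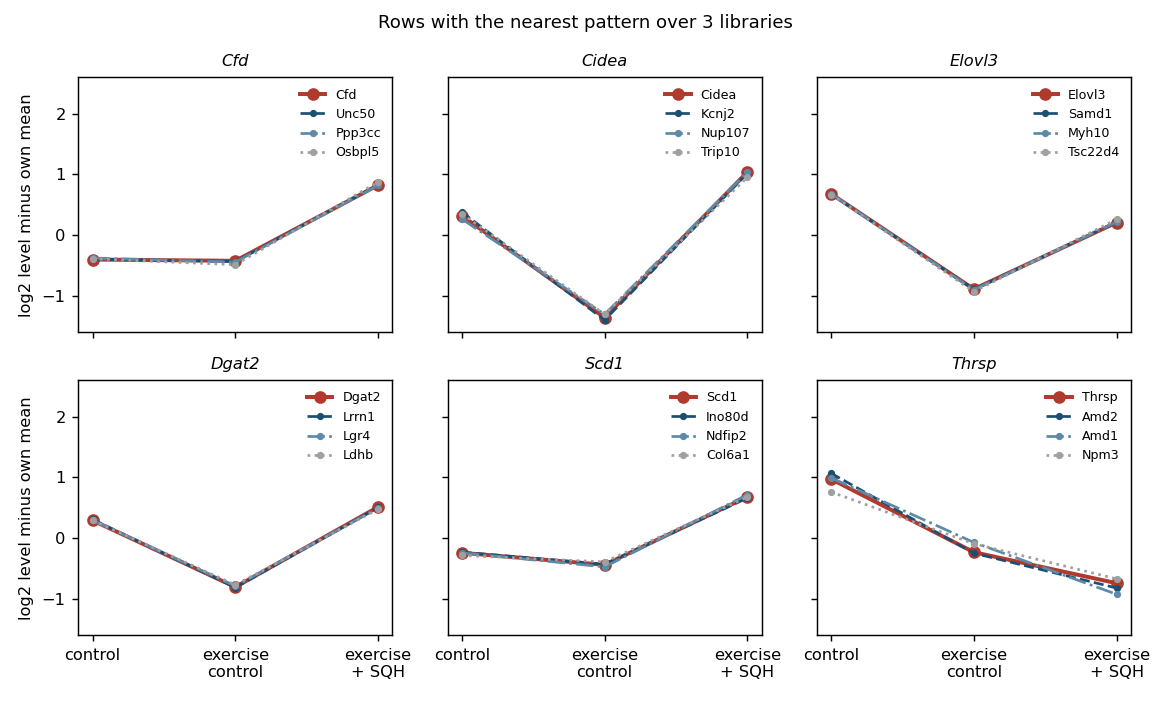
Log2 level minus the gene's own mean (vertical axis) in the 3 libraries (horizontal axis). Red lines are 6 genes, and blue and grey lines are the 3 nearest named rows of each. Lines join libraries for legibility. Thrsp descends from NC through EC to ES, whereas Cidea, Elovl3 and Dgat2 dip in EC.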

How the data were processed

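The 3 libraries of skeletal muscle, 1 per group, were read as QuantSeq 3' libraries made from 500 ng of total RNA, per the labels' protocols. Bowtie2, edgeR and the build mm10 appear in the submitters' processing notes, and the step that the authors took from reads to values is otherwise not given in the sources used here. The deposited log2 values have 3 decimals and a lowest value of 0. Raised to the linear scale, low values (up to 9) bunch at multiples of a step per library (0.939, 1.19 and 0.766 for NC, EC and ES), within 0.2 step for 100%, 95.7% and 84.4% of them, so reads are approximate and no count model was fitted.

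The call rule was set out for counts or normalized values. It takes a difference of 1 on the log2 scale and a mean linear value of at least 66.5. It was tried on simulated data with counting error alone and set changes larger than 2-fold. That trial does not cover changes near 2-fold or the spread between animals. Counting intervals come from the exact binomial interval of 2 approximate read numbers. The 10 genes and the 14 lists were chosen with earlier results of these data known. All 10 genes are named, and from each list and comparison up to 4 called genes, or up to 2 where none was called, by size of difference. Other genes named, cell type markers included, were chosen with their values known. For likeness, the 3 nearest rows were named among symbols found on 1 row that are not clone or model numbers. Counts of rows within 0.25 were not limited in that way. Alternatives were other scaling, other minimum levels, an added constant and a 1.5-fold limit. Positions are from GENCODE M21 for GRCm38 and promoter sequences from RefSeq. Python 3.11.15, numpy 2.4.6, pandas 2.3.3 and scipy 1.17.1 were used.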

Additional observations from a re-analysis of the deposited data

How the results depend on the processing

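No paired analysis was possible because each group has 1 library, and no library could be left out in turn. Centring the libraries or quantile normalization changed no count of called genes by more than 1.5 times. Of 125 values of single genes under an alternative, 111 kept their call or stayed within their counting interval and 0 reversed. A changed minimum leaves each difference as it was, and an added constant cannot turn its sign. Only centring and quantile normalization could therefore reverse a value. Sign changes within counting error, such as Cfd in EC against NC (-0.021, 0.051 when centred), were not counted as reversals. The minimum level mattered most, since a higher one tests fewer genes. At the third quartile (271, which only Dgat2 and Thrsp reached), genes called lower in EC than in NC numbered 2 (4.02% of all 3929 rows), those called higher in ES than in EC 1 (4.22%), and those called higher than in NC 0 (0.916%). With no minimum, those called higher in ES numbered 9 against EC, with Adipoq, Plin1, Cidec and Ucp1 added. Against NC they numbered 4, with Plin1, Cidec and Ucp1 added. Those called lower in EC than in NC numbered 6, with Adipoq and Cidec added, beside 15.4% of all rows. The added genes rest on few reads. Without a minimum 16.3% of all rows were called higher in ES than in EC and 11.91% than in NC. A 1.5-fold limit gave 3 genes higher in ES than in NC (Cfd, Cidea and Scd1), beside 7.39% of rows. Adding 8 to the linear values took the median difference of the 10 genes from 1.74 to 1.23 in ES against EC and from 0.82 to 0.683 in ES against NC, because it shrinks low genes. Elovl3 lost its call in ES against EC under quantile normalization (0.944) and with 8 added (0.943). The comparisons with EC cannot be made without that library.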

Other observations

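Some lipid genes below the minimum level had large differences, given here as values and chosen after they were seen. Agpat2, the acyltransferase whose loss causes absence of fat tissue, stood at 6.04 in NC, 4.84 in EC and 5.89 in ES. Bscl2, which encodes the droplet assembly protein seipin, was instead low in NC, at 3.49, 5.98 and 5.52. Pnpla3 stood at 6.02, 6.35 and 4.57, lowest in ES. Tmem26 was listed at 0 in NC and EC and at 4.07 in ES.

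The 5 endothelial markers all passed the minimum, and none was called. Their summed linear level was 1786 in NC, 2492 in EC and 1943 in ES. The 3 liver markers were below the minimum in all libraries, with summed levels of 30.0, 37.0 and 29.8.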
